A study of Mus musculus with 24 samples.

Results

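The genes described are 5 Siglec receptors of the mouse, Cd33, Cd22, Siglece, Siglech and Siglec1, taken by symbol from a table of read counts with 54532 genes. RNA was sequenced from the striatum, the input nucleus of the basal ganglia, in 24 animals with 1 library each. All animals were of the strain C57BL/6 and fell into 4 genotypes of 6 animals, 3 male (replicates 1 to 3) and 3 female (replicates 4 to 6). WT carried neither change, Tyrobp-KO lacked Tyrobp, Q175 was heterozygous for the Q175 allele, and Q175;Tyrobp-KO carried the heterozygous Q175 allele and lacked Tyrobp. Q175 is a knock-in model of Huntington's disease, in which a long CAG repeat is placed in the mouse huntingtin gene. The sources used here do not give the animals' age. The labels say neither how Tyrobp was deleted nor whether the compared animals were littermates. The replicate numbers only name a library and do not pair animals.

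Siglecs are lectins of the immunoglobulin superfamily that bind sialic acid, the sugar that caps many cell surface glycans. Several of them carry immunoreceptor tyrosine-based inhibitory motifs in the cytoplasmic tail and dampen activation of myeloid or B cells, whereas Siglech has no such motif and signals through the adaptor DAP12, the product of Tyrobp. In the brain, microglia are the main cells that express Cd33, Siglece and Siglech, and variants of human CD33 are associated with the risk of Alzheimer's disease.

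Of the 5 genes, 4 lie on chromosome 7, which also carries Tyrobp (chromosome 7, 30413760 to 30417585, GRCm38, plus strand). Cd22 (ENSMUSG00000030577, chromosome 7, 30865402 to 30880342, minus strand) is 0.448 Mb from Tyrobp. Cd33 (ENSMUSG00000004609, chromosome 7, 43524216 to 43544428, minus strand) and Siglece (ENSMUSG00000030474, chromosome 7, 43651070 to 43660161, minus strand) are 13.1 and 13.2 Mb away. Siglech (ENSMUSG00000051504, chromosome 7, 55768178 to 55778925, plus strand) is 25.4 Mb away. Siglec1 (ENSMUSG00000027322) is on chromosome 2, 131069220 to 131086765, minus strand. All 5 are annotated as protein coding. The antisense gene Gm29439 overlaps Cd22. It was given 0 reads in all 24 libraries, but the sources used here do not say whether counting used strand, so reads of the Cd22 locus are not assigned to a strand with certainty.

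The sequence just before the start of the 4 genes on chromosome 7 is shown to compare the members that fell with those that did not. The stretches come from RefSeq on GRCm38.p6, are written 5′ to 3′ on the strand of the gene and are taken from the 250 bases before the RefSeq start. Bases that the GENCODE M21 annotation places in an exon of any gene were left out, so the stretch of Siglech ends 6 bases short of that start and those of Cd33 and Cd22 begin later. The stretches are chr7:43533172-43533364 for Cd33, chr7:30879029-30879176 for Cd22, chr7:43660162-43660411 for Siglece, all on the minus strand, and chr7:55767934-55768177 for Siglech on the plus strand. Capitals mark GGAAGT or its reverse complement ACTTCC, a core that myeloid factors of the ETS family such as PU.1 are known to bind.
Cd33: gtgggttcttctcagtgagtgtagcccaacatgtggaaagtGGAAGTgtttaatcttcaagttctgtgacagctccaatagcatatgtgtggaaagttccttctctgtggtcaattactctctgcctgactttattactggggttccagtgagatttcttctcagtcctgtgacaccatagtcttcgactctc
Cd22: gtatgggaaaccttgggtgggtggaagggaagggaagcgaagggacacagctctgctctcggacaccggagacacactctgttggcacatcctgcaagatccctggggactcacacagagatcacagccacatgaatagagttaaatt
Siglece: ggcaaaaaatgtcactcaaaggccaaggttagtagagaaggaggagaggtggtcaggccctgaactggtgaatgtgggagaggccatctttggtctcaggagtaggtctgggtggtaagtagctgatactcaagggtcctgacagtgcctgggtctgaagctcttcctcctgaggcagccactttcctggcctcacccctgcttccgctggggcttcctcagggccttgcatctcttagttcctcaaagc
Siglech: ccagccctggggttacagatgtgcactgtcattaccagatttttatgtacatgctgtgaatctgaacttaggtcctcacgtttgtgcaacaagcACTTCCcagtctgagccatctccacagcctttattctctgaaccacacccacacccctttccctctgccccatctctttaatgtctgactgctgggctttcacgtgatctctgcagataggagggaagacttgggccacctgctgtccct
RefSeq promoter sequence was found for 4 of the 5 members, Siglec1 being the one without. Within the 250 bases before the start, on either strand, Cd33 held 1 match that begins at position -152 and Siglech 1 at position -156, counted back from the start. Cd22 and Siglece held 0. Of 32851 promoters in the RefSeq table, 6485 (19.7%) held the motif in the same window. A match is only a run of letters, not a measured binding site. The longest run that Cd33 shared with another Siglec gene was the 16 bases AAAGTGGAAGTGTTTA, which begin at -157 in Cd33 and at -27 in Siglecf, a neighbouring Siglec gene of eosinophils and macrophages. The RefSeq start of Cd33 lies 11.3 kb inside the span that the table gives for the gene, and that of Cd22 1.31 kb inside, so other starts are annotated for both.

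The libraries held 25482686 to 34626720 counted reads. Values are CPM, counts scaled to library size with TMM factors, and calls rest on edgeR's quasi-likelihood test over 19667 genes, with an adjusted p (Benjamini-Hochberg) below 0.05. Tyrobp was at 7.88 ± 1.15 CPM in WT and 8.68 ± 2.10 CPM in Q175 (SD, n = 6). It was at 0.341 ± 0.0926 CPM in Tyrobp-KO and 0.260 ± 0.0423 CPM in Q175;Tyrobp-KO, and no library without Tyrobp was above 0.448 CPM, while none with it was below 5.70 CPM. Striatal genes such as Ppp1r1b, Drd1 and Drd2 were present in all 24 libraries. The animal numbers begin with T in all 12 animals that lack Tyrobp and in no other animal. They begin with Q in the 6 Q175 animals and in WT replicate 3, and with WT in the other 5. A colony or litter difference that the prefix might mark cannot be told apart from the deletion. In whole tissue, fewer cells of a type and less RNA per cell cannot be told apart either.

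Per kilobase of gene length, which allows levels of different genes to be compared, the order of the members in WT was Siglech, Cd33, Siglece, Cd22 and Siglec1. Siglech was at 5.31 ± 0.547 CPM per kb, Cd33 at 1.62 ± 0.193, Siglece at 0.341 ± 0.177, Cd22 at 0.0803 ± 0.0186 and Siglec1 at 0.0357 ± 0.0278 CPM per kb (SD, n = 6). The ranges of the last 2 overlapped in WT, and those of the others did not. The order was the same in the other 3 genotypes. In Q175;Tyrobp-KO the levels were 4.96 ± 0.189 CPM per kb for Siglech, 0.836 ± 0.0607 for Cd33 and 0.429 ± 0.194 CPM per kb for Siglece. Cd33 was thus closer to Siglece there than in WT.

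**Figure D1:**
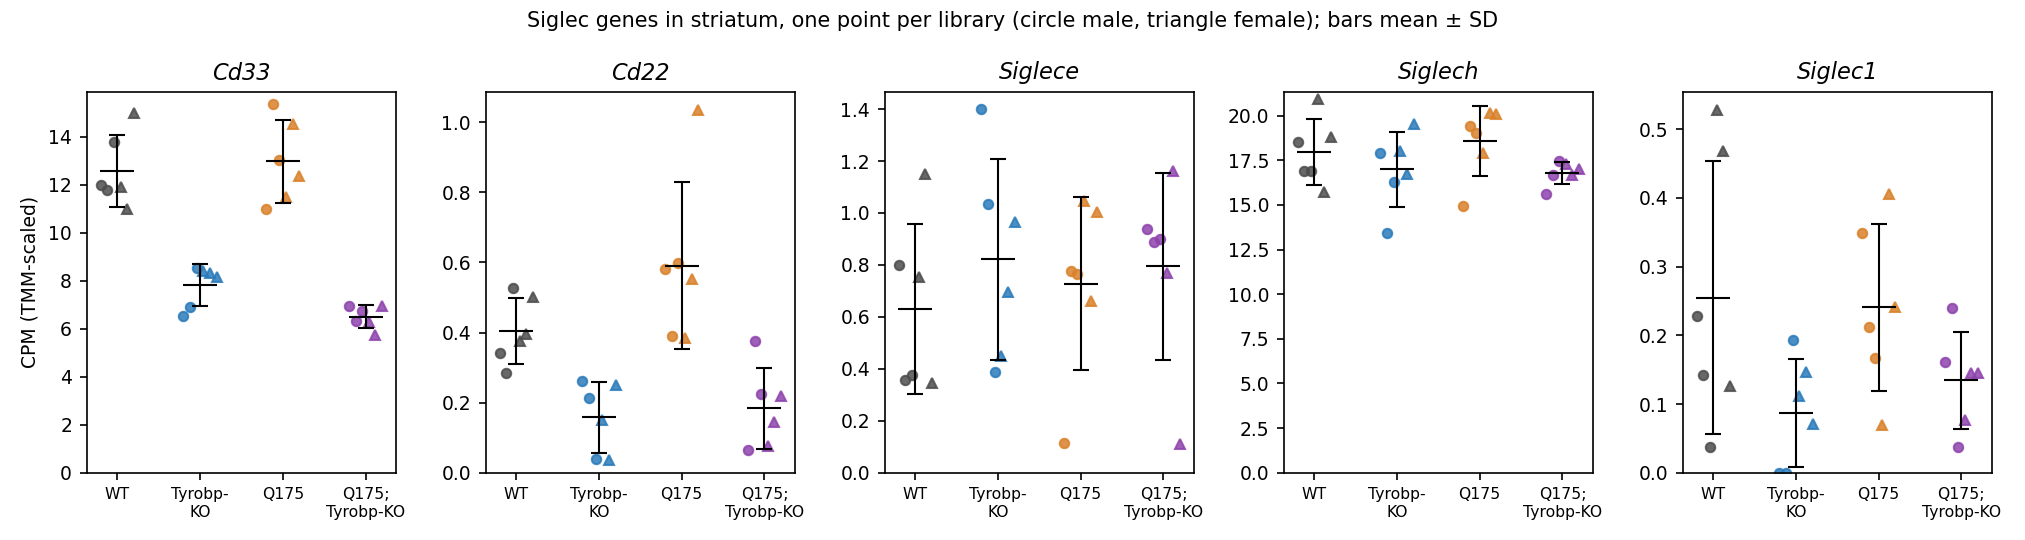
TMM-scaled CPM of the 5 Siglec genes in each of the 24 libraries, by genotype (circles male, triangles female, horizontal marks means, bars SD, n = 6; each panel has its own vertical axis from 0). The Cd33 points of both genotypes without Tyrobp (5.74 to 8.55 CPM) sit below all points of WT and Q175 (11.0 to 15.4 CPM), while those of Siglech overlap across the 4 genotypes.

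Cd33, a Siglec of myeloid cells, was lower wherever Tyrobp was deleted. In WT, Cd33 ranged from 10.97 to 14.98 CPM with a median of 11.96, from 305 to 477 reads per library. In Tyrobp-KO it ranged from 6.54 to 8.55 CPM with a median of 8.25, and no Tyrobp-KO library reached the lowest WT library. Among all genes tested, 0.203% were lower without overlap in this comparison. The log2 fold change was -0.69 ± 0.0999 (SE), so that Cd33 fell by 37.9% (95% interval, -46.15% to -28.5%; edgeR adjusted p = 0.000343). It was the only one of the 4 tested members called in Tyrobp-KO against WT, where 0.117% of all genes tested were called.

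The same receptor fell within the Q175 background. Cd33 ranged from 11.0 to 15.4 CPM in Q175, with a median of 12.7, and from 5.74 to 6.95 CPM in Q175;Tyrobp-KO, with a median of 6.54. Again the 2 groups did not overlap, as was so for 0.3% of all genes in the lower direction. The log2 fold change was -0.997 ± 0.101, so that Cd33 fell by 49.9% (95% interval, -56.6% to -42.2%; edgeR adjusted p = 5.18e-07). Cd33 was the only member called in this comparison too, in which 0.158% of all genes were called. Ordered by p, it stood at rank 6 of all genes here and at rank 11 in Tyrobp-KO against WT.

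Averaged over the Q175 genotype, Cd33 fell by 44.2% with the deletion (log2 fold change -0.84 ± 0.0710, edgeR adjusted p = 5.17e-09). All 12 libraries without Tyrobp lay below all 12 with it, which held for 9 of the 19667 genes tested (0.0458%). The 9 were Tyrobp, Cd33, Dmkn, Nudt19, Cep89, Klk8, Sipa1l3 and Lgals4 on chromosome 7, and Lag3 on chromosome 6. The fall was present in both sexes. Male WT animals were at 12.5 ± 1.09 CPM and male Tyrobp-KO animals at 7.33 ± 1.07 CPM, against 12.6 ± 2.10 and 8.30 ± 0.115 CPM in females (SD, n = 3). With only the females in the fit, the log2 fold change of Tyrobp-KO against WT was -0.61 and was not called (edgeR adjusted p = 0.688), in a fit that called 8 genes in all. With only the males it was -0.77 (edgeR adjusted p = 0.0375). Leaving out any single library kept the call of Cd33, with log2 fold changes of -0.73 to -0.64 in Tyrobp-KO against WT and -1.04 to -0.94 in Q175;Tyrobp-KO against Q175.

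With the Q175 allele none of the members passed the threshold, by edgeR, DESeq2 or limma-voom. At an unadjusted p under 0.05 it was 0 of 4 in Q175 against WT and 1, Cd33, in Q175;Tyrobp-KO against Tyrobp-KO. Cd33 was at 12.6 ± 1.497 CPM in WT and 12.97 ± 1.72 CPM in Q175 (SD, n = 6), a log2 fold change of 0.04 ± 0.0981 (95% interval, -0.16 to 0.25; edgeR adjusted p = 0.846). Among all genes tested, 9.63% were called in that comparison. Between the genotypes without Tyrobp, Cd33 was at 7.82 ± 0.862 CPM in Tyrobp-KO and 6.50 ± 0.472 CPM in Q175;Tyrobp-KO. That difference (log2 fold change -0.26 ± 0.102) was not called (edgeR adjusted p = 0.139), where 5.86% of all genes were. The difference between the 2 deletion effects on Cd33 was -0.31 ± 0.141 on the log2 scale, with an unadjusted p of 0.0378 and an edgeR adjusted p of 0.999. So a larger fall of Cd33 in the Q175 background was not called. Averaged over Tyrobp genotype, the Q175 allele called 18% of all genes and 0 of the 4 tested members, and the interaction called 0 genes of any kind by edgeR (707 at an unadjusted p under 0.05), 2 by DESeq2 and 1 by limma-voom. Sex called 0.0814% of all genes and 0 members, with Cd33 at a log2 difference of 0.02 ± 0.0707 in females against males.

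**Figure D2:**
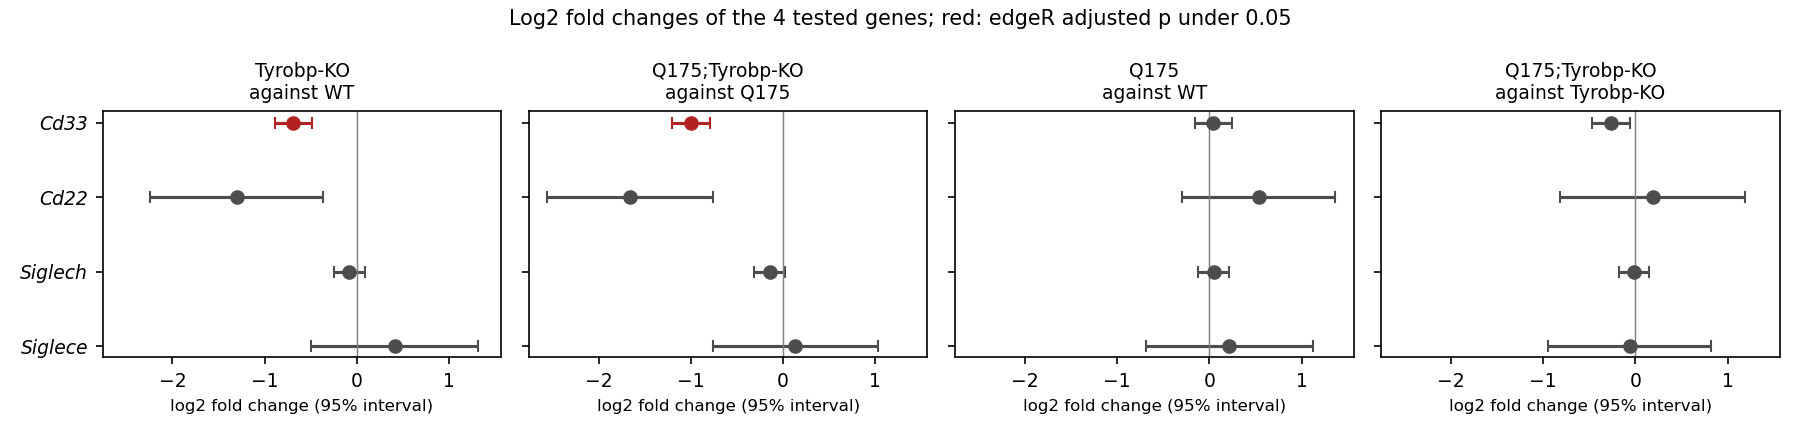
Log2 fold changes of the 4 tested members with 95% intervals in the 4 comparisons of genotypes (points, estimates from edgeR; red, adjusted p under 0.05). Cd33 is red in both comparisons with and without Tyrobp, at -0.69 and -0.997. The intervals of Siglech span 0 in all 4 comparisons, and those of Cd22 are wide.

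Cd22, the inhibitory receptor of B cells that microglia can also express, was scarce and lower without Tyrobp. The 6 libraries of a genotype held 68 reads of Cd22 in WT, 28 in Tyrobp-KO, 100 in Q175 and 31 in Q175;Tyrobp-KO. It passed the filter on low counts through the genotypes in which it was higher, since 4 WT and 6 Q175 libraries were at or above 0.358 CPM, against 0 Tyrobp-KO libraries and 1 Q175;Tyrobp-KO library. Its difference is therefore not independent of the filter. Cd22 ranged from 0.284 to 0.527 CPM in WT (median 0.386) and from 0.0367 to 0.263 CPM in Tyrobp-KO (median 0.182). It ranged from 0.383 to 1.04 CPM in Q175 (median 0.567) and from 0.0646 to 0.376 CPM in Q175;Tyrobp-KO (median 0.182). Within each Q175 background the groups did not overlap, although Q175 (lowest 0.383 CPM) and Q175;Tyrobp-KO (highest 0.376 CPM) nearly met. Among all genes tested, 0.203% were lower without overlap in Tyrobp-KO against WT and 0.3% in Q175;Tyrobp-KO against Q175. The limit of the filter holds for the lack of overlap of Cd22 too.

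Neither simple comparison called Cd22. The log2 fold change was -1.31 ± 0.455 in Tyrobp-KO against WT (edgeR adjusted p = 0.749) and -1.66 ± 0.440 in Q175;Tyrobp-KO against Q175 (edgeR adjusted p = 0.261). Averaged over the Q175 genotype it fell by 64.2% (log2 fold change -1.48 ± 0.317, 95% interval -2.13 to -0.83) and was called (edgeR adjusted p = 0.0354). In the averaged comparison 0.208% of all genes were called. Cd33 and Cd22 were the members called, and the call of Cd22 carries the limit of the filter given above. The call of Cd22 was lost without the filter on low counts (edgeR adjusted p = 0.0596), in males alone (0.298) and in females alone (0.676). It was also lost on leaving out any of 17 of the 24 libraries (edgeR adjusted p 0.0511 to 0.0963). It was kept without WT replicate 2, Tyrobp-KO replicates 1 and 6, Q175 replicates 1, 2 and 4, or Q175;Tyrobp-KO replicate 2. The direction was lower in each of these fits, with log2 fold changes of -1.83 to -1.17. Q175 against WT gave 0.54 ± 0.405 for Cd22 (edgeR adjusted p = 0.474).

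B cell markers other than Ighm were near 0 in these libraries. The median over the 24 libraries was 0 CPM for Ms4a1, 0.133 CPM for Cd79a and 0.111 CPM for Cd79b, while Ighm ranged from 7.69 to 75.4 CPM. Of the 6 listed markers only 1, Ighm, passed the filter, and it was not called in any of the 4 comparisons. The summed level of the list ranged from 15.1 to 53.2 CPM in WT (median 39.9), 44.8 to 75.7 in Tyrobp-KO (58.3), 8.29 to 41.5 in Q175 (23.4) and 10.3 to 53.5 in Q175;Tyrobp-KO (36.9). Nearly all of each sum was Ighm, and the part of B cells in the values of Cd22 was not tested.

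Siglech, the DAP12-coupled Siglec of microglia and plasmacytoid dendritic cells, stayed within its spread when its adaptor gene was deleted. It ranged from 15.7 to 20.95 CPM in WT (median 17.7), 13.4 to 19.6 in Tyrobp-KO (17.3), 14.95 to 20.2 in Q175 (19.2) and 15.6 to 17.4 in Q175;Tyrobp-KO (16.9). All 4 groups overlapped. The log2 fold change was -0.08 ± 0.0811 in Tyrobp-KO against WT (95% interval, -0.25 to 0.08; edgeR adjusted p = 0.839). It was -0.15 ± 0.0811 in Q175;Tyrobp-KO against Q175 (95% interval, -0.31 to 0.02; edgeR adjusted p = 0.843). The averaged effect was -0.11 ± 0.0573, with a 95% interval from -14.8% to 0.254% (edgeR adjusted p = 0.569). A fall of Siglech as large as that of Cd33 is outside this interval. In Q175 against WT Siglech was at 0.05 ± 0.0810 (edgeR adjusted p = 0.784), and in Q175;Tyrobp-KO against Tyrobp-KO at -0.02 ± 0.0813 (edgeR adjusted p = 0.950). Among markers of plasmacytoid dendritic cells, Klk1 had a median of 0.0380 CPM and Ccr9 one of 0.347 CPM, and 0 of 4 tested markers were called in any of the 4 comparisons.

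Siglece, an inhibitory Siglec of neutrophils, macrophages and microglia, lies close to Cd33 and was not called in any comparison. It ranged from 0.345 to 1.15 CPM in WT (median 0.565), 0.387 to 1.40 in Tyrobp-KO (0.831), 0.116 to 1.05 in Q175 (0.772) and 0.109 to 1.16 in Q175;Tyrobp-KO (0.894). All 4 groups overlapped, and the single libraries varied more than the group means. The log2 fold change was 0.41 ± 0.441 in Tyrobp-KO against WT (95% interval, -0.50 to 1.31; edgeR adjusted p = 0.855). It was 0.13 ± 0.437 in Q175;Tyrobp-KO against Q175 (95% interval, -0.76 to 1.03; edgeR adjusted p = 0.968). The averaged interval of -0.37 to 0.91 does not contain the fall of Cd33. In the fit of females alone its 2 estimates had the other sign, -0.08 and -0.42. Neutrophil and monocyte markers were scarce. Ly6g had 0 reads in all 24 libraries, and S100a9 alone of the 6 listed passed the filter. It did so through Q175, at 0.706 ± 0.629 CPM against 0.119 ± 0.113 CPM in WT, with no WT library above 0.283 CPM, so its call as higher there (log2 fold change 2.49, edgeR adjusted p = 0.0284) is not independent of the filter.

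Siglec1, the sialoadhesin of tissue macrophages, did not pass the filter on low counts. The 6 libraries of a genotype held 42 reads in WT, 14 in Tyrobp-KO, 40 in Q175 and 23 in Q175;Tyrobp-KO, and it was without a read in 2 Tyrobp-KO libraries. It ranged from 0.0377 to 0.527 CPM in WT, 0 to 0.193 in Tyrobp-KO, 0.0697 to 0.405 in Q175 and 0.0375 to 0.239 in Q175;Tyrobp-KO. A count of 0 in a library still allows 3 reads, and all 4 groups overlapped. Fitted without the filter, its log2 fold change was -1.49 ± 0.702 in Tyrobp-KO against WT (edgeR adjusted p = 0.821) and -0.79 ± 0.669 in Q175;Tyrobp-KO against Q175 (edgeR adjusted p = 0.810). The averaged deletion effect was -1.14 ± 0.485 (95% interval, -2.11 to -0.17; unadjusted p = 0.0224, edgeR adjusted p = 0.622). No difference of Siglec1 was called. Of 7 markers of border macrophages 3 passed the filter and 0 were called. Mrc1 had a median of 1.07 CPM and Cd163 one of 14.9 CPM.

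The other mouse genes of the family are Mag, the myelin-associated glycoprotein of oligodendrocytes, Siglecf, Siglecg of B cells and Siglec15 of osteoclasts. Mag was the most abundant, at 306 ± 67.3 CPM in WT and 335 ± 48.5 CPM in Tyrobp-KO (SD, n = 6), and was not called although it lies 0.482 Mb from Tyrobp (averaged log2 fold change 0.10 ± 0.0898, edgeR adjusted p = 0.730). Siglecf ranged from 0.466 to 1.14 CPM in Q175 and from 0.0750 to 0.517 CPM in Q175;Tyrobp-KO, groups that overlap. Its log2 fold change there was -1.38 ± 0.445 (unadjusted p = 0.00448, edgeR adjusted p = 0.602), and 0.03 ± 0.449 in Tyrobp-KO against WT. Siglec15 was not called in any comparison, and Siglecg did not pass the filter.

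The calls of the deletion crowded around Tyrobp, and Cd33 and Cd22 lie among them. In the averaged comparison, 12 of 73 tested genes within 1 Mb of Tyrobp were called (16.4%), as were 8 of 134 between 1 and 5 Mb (5.97%) and 7 of 257 between 5 and 15 Mb (2.72%). Beyond 15 Mb on chromosome 7 it was 1 of 1104 (0.0906%), and on the other chromosomes 12 of 18098 (0.0663%). Tyrobp itself is not counted here. Cd22, with the same limit, is 1 of the 12 in the nearest window and Cd33 1 of the 7 between 5 and 15 Mb. The called genes of these windows went both ways, 6 higher and 6 lower within 1 Mb and 3 higher and 4 lower between 5 and 15 Mb. The windows count both sides of Tyrobp together, but the calls were uneven. On the side of lower positions the outermost called gene starts at 28825217. All 7 between 5 and 15 Mb lie on the side of higher positions, from Nudt19 (start 35547185) to Klk6 (end 43832030).

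Close to Cd33, 3 other genes were called. Zfp658, a zinc finger gene between Cd33 and Siglece, rose from 8.62 ± 1.45 CPM in WT to 16.3 ± 1.77 CPM in Tyrobp-KO (averaged log2 fold change 0.84 ± 0.0784, edgeR adjusted p = 4.77e-08). Klk6, a kallikrein-related peptidase gene of oligodendrocytes, rose from 11.6 ± 2.65 to 21.2 ± 3.13 CPM (0.94 ± 0.111, edgeR adjusted p = 1.30e-05). Klk8, a neuronal member of that family, fell from 1.31 ± 0.404 to 0.409 ± 0.190 CPM (-1.62 ± 0.203, edgeR adjusted p = 1.31e-05). These 3 genes and Cd33 lie within 43524216 to 43832030 of chromosome 7. The tested genes between or beside them, Zfp719, Iglon5, Etfb, Vsig10l, Ctu1 and Siglece, were not called. Next to Cd22, Dmkn fell (-1.68 ± 0.109, edgeR adjusted p = 2.12e-11) and Sbsn fell (-0.81 ± 0.129, edgeR adjusted p = 0.000783), whereas Ffar3, Mag, Hamp2 and Usf2-ps1 were not called. Of the 6 tested genes nearest to Siglech, 0 were called. Whether sequence differences near the deleted gene, carried along with it, have a part in the values of Cd33 and Cd22 was not tested. Position and deletion cannot be told apart for genes inside this stretch with these libraries.

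**Figure D3:**
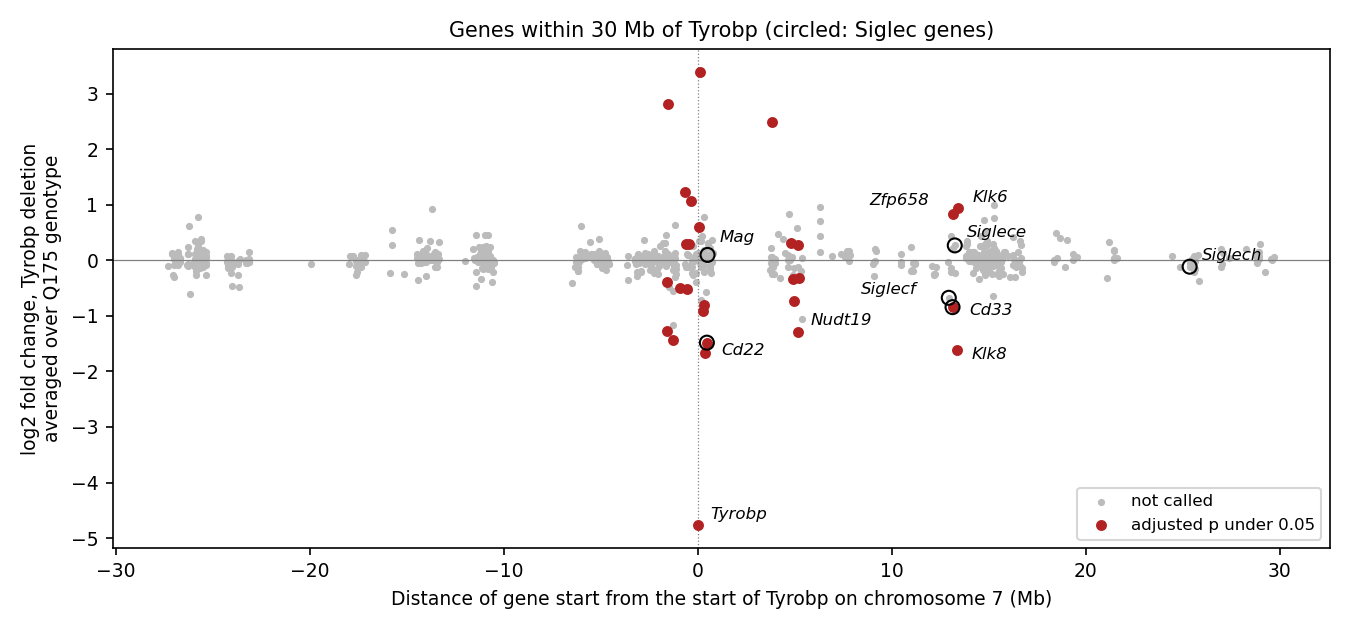
Log2 fold change of the deletion, averaged over the Q175 genotype, against distance of the gene start from that of Tyrobp for tested genes within 30 Mb on chromosome 7 (red, edgeR adjusted p under 0.05; circles, Siglec genes). Cd22 and Cd33 are red among called genes that go up and down around them, while Mag, Siglece and Siglech lie at 0.10, 0.27 and -0.11.

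The log2 fold changes of microglial markers were mostly below 0 without Tyrobp, though not called. Of 15 listed markers, such as Cx3cr1, P2ry12 and Tmem119, all 15 were tested and 0 were called by edgeR in any of the 4 comparisons. At an unadjusted p under 0.05 it was 1 of 15 in Tyrobp-KO against WT, where 6.45% of all genes were, and 9 of 15 in Q175;Tyrobp-KO against Q175, where 6.04% were. Their median log2 fold change was -0.09 in Tyrobp-KO against WT, with 14 of 15 below 0, and -0.24 in Q175;Tyrobp-KO against Q175, with 15 of 15 below 0. The medians of all genes tested were 0.00 in both. Cd33 was at -0.69 and -0.997 in the same comparisons. The summed level of the list ranged from 486 to 578 CPM in WT (median 537), 407 to 565 in Tyrobp-KO (502), 488 to 599 in Q175 (569) and 444 to 537 in Q175;Tyrobp-KO (459). These ranges overlapped, unlike those of Cd33. Other genes of microglia and macrophages, which the list does not hold and which are named here after their values were seen, were called lower in Q175;Tyrobp-KO against Q175. They were Lyz2, Clec7a, Trem2, Cst7, C1qb, Adgre1 and Mpeg1 off chromosome 7, and Itgax far from Tyrobp on it. Their log2 fold changes ran from -3.42 for Clec7a to -0.36 for Mpeg1. None of these 8 was called in Tyrobp-KO against WT. Lag3 on chromosome 6, not counted among these 8, was called lower in both deletion comparisons. Its log2 fold change was -0.77 in Q175;Tyrobp-KO against Q175 (edgeR adjusted p = 0.0003175) and -0.62 in Tyrobp-KO against WT (edgeR adjusted p = 0.0098).

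Set against the geometric mean of the 14 microglial markers that lie off chromosome 7, Cd33 remained lower without Tyrobp. The log2 ratio of Cd33 to that mean was -1.18 ± 0.110 in WT and -1.76 ± 0.160 in Tyrobp-KO (SD, n = 6). It was -1.20 ± 0.176 in Q175 and -1.95 ± 0.108 in Q175;Tyrobp-KO. The lowest library with Tyrobp was at -1.48 and the highest without it at -1.62, so the groups did not overlap on this scale either. That held for 6 of the 19667 genes tested (0.0305%) in the lower direction. The mean does not include the called genes just named, and the ratio to those was not computed. For Siglech the ratio was -0.66 ± 0.116, -0.64 ± 0.149, -0.68 ± 0.110 and -0.58 ± 0.0902 in the same order of genotypes, and all 4 groups overlapped.

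**Figure D4:**
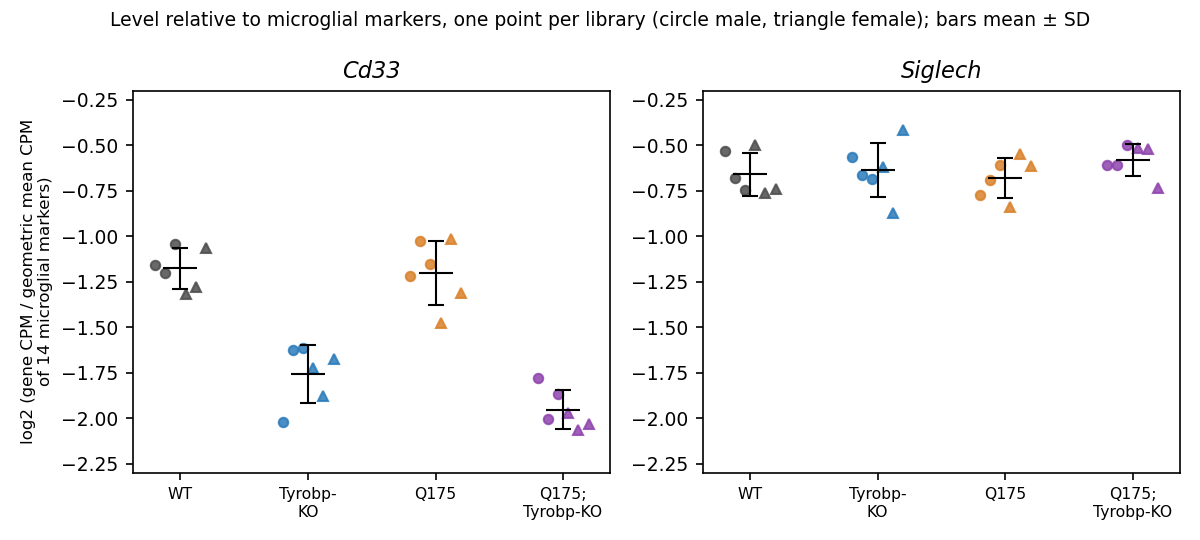
Log2 ratio of Cd33 (left) and Siglech (right) CPM to the geometric mean CPM of 14 microglial markers in each library (circles male, triangles female, horizontal marks means, bars SD, n = 6). Cd33 lies at or below -1.62 in the 12 libraries without Tyrobp and at or above -1.48 in the others, while Siglech stays between -0.87 and -0.42 throughout.

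The genes whose log2 CPM followed Cd33 most closely over the 24 libraries were Tyrobp (Pearson r = 0.939), Dmkn (0.924), Nudt19 (0.905), Cep89 (0.879) and Klk8 (0.836), all on chromosome 7. These values share the difference between genotypes. After removal of the means of genotype and sex, r with Cd33 was 0.333 for Tyrobp, 0.417 for Dmkn and -0.05 for Nudt19. The median r of Cd33 with the microglial markers was 0.524 over all libraries and 0.399 after that removal. For Cd22 the closest genes were Gpatch1 (0.839), Cep89 (0.792), Nudt19 (0.774), Mettl16 (0.754) and Tyrobp (0.749). After removal of the means of genotype and sex these were 0.603, 0.210, 0.037, 0.524 and -0.180. The median r of Cd22 with the microglial markers was 0.307, and -0.114 after that removal. For Siglech the closest genes were Postn (0.761), Abcd3, Fbxo7, Rpn2 and Hist1h4i (0.733), none of them on chromosome 7. Its median with the microglial markers was 0.538. For Siglece the highest was 0.694, with Gm19557. Between members, r was 0.661 for Cd33 and Cd22, 0.482 for Cd33 and Siglech, and -0.21 for Cd33 and Siglece. Within genotype and sex these were -0.19, 0.408 and -0.29. All are descriptions over 24 libraries that share tissue and protocol.

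Genes that make, attach or remove sialic acid, the ligand of Siglecs, were not called by edgeR for the deletion. For the Q175 allele, the calls here and those of the receptor effectors stand beside 9.63% of all genes called in Q175 against WT and 5.86% in Q175;Tyrobp-KO against Tyrobp-KO. Of 6 tested genes of sialic acid synthesis and transport, such as Gne, 0 were called in any of the 4 comparisons, with 1 at an unadjusted p under 0.05 in Tyrobp-KO against WT and 0 in Q175;Tyrobp-KO against Q175. Of 19 tested sialyltransferases, which attach sialic acid to glycans, 0 were called in the deletion comparisons (1 and 0 at an unadjusted p under 0.05). Averaged over Tyrobp genotype, the Q175 allele called 3 of the 19 lower and 1 higher, beside 18% of all genes. Only 1 was called in the separate comparisons of the Q175 allele, and it fell in both. This was St8sia2, a polysialyltransferase, with a log2 fold change of -1.23 ± 0.219 in Q175 against WT (edgeR adjusted p = 0.000706) and -0.79 ± 0.221 in Q175;Tyrobp-KO against Tyrobp-KO (edgeR adjusted p = 0.0347). Of 4 sialidases, which cleave sialic acid, Neu2 fell in Q175 against WT (-0.30 ± 0.0963, edgeR adjusted p = 0.0423). It was not called in Q175;Tyrobp-KO against Tyrobp-KO (-0.12 ± 0.0966, edgeR adjusted p = 0.576).

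Downstream of the receptors, 7 effectors of inhibitory motifs were tested, among them phosphatases. Inppl1, the lipid phosphatase SHIP2, fell in Q175 against WT (-0.38 ± 0.0750, edgeR adjusted p = 0.00108) and in Q175;Tyrobp-KO against Tyrobp-KO (-0.32 ± 0.0749, edgeR adjusted p = 0.00829). The other 6 were not called in either of these comparisons. For the deletion, 0 of 7 were called (0 and 1 at an unadjusted p under 0.05). The Q175 allele averaged over Tyrobp genotype called Inppl1 lower and 1 of the other effectors higher, beside 18% of all genes. In the chain of DAP12 signalling, 9 of 10 listed genes were tested. Besides Tyrobp, Trem2, a microglial receptor that pairs with DAP12, fell in Q175;Tyrobp-KO against Q175 (-0.51 ± 0.0899, edgeR adjusted p = 0.00426). It was not called in Tyrobp-KO against WT (-0.14 ± 0.0899, edgeR adjusted p = 0.763). Pik3cd, a catalytic subunit of phosphoinositide 3-kinase in leukocytes, was higher in Q175 against WT (0.33 ± 0.0685, edgeR adjusted p = 0.00208) and in Q175;Tyrobp-KO against Tyrobp-KO (0.28 ± 0.0684, edgeR adjusted p = 0.0109). Trem2 and Pik3cd lie outside chromosome 7. The Q175 comparison against WT is in part one of animal number prefixes, whereas that between the 2 genotypes without Tyrobp is within a single prefix.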

How the data were processed

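Per the labels' protocols, RNA was taken with Trizol from the frozen striatum of one hemisphere and sequenced on an Illumina Novaseq. The authors deposited raw counts of reads for each gene, as whole numbers without normalization. The submitters' processing notes name STAR, featureCounts, DESeq2 and GRCh38, a human build. The table's coordinates are those of mouse GRCm38: of 54532 genes, 54409 were found in GENCODE M21 and 53499 (98.3%) of these had the same start and end. The sources used here do not name a strand setting.

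The main fit used edgeR 4.0.16 in R 4.3.3 (TMM, filterByExpr on genotype, robust quasi-likelihood) over all 24 libraries, with genotype and sex as additive terms. It tested 19667 genes in 8 contrasts. Adjusted p-values run over all genes tested, and an error beside a log2 fold change is its standard error. The averaged contrast is the mean of the 2 deletion contrasts. Libraries of one genotype, in 60 pairs, differed by a mean chi-square of 6.89 or more per gene, so 24 libraries were counted. Depth was 25482686 to 34626720 reads, and limits from a count of 0 (3 reads) cover counting error only. The labels give 1 animal number per library.

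Alternatives were DESeq2 size factors, DESeq2 1.42.0, limma-voom (limma 3.58.1), no filter on low counts, no sex term, each sex alone, only the 12 libraries compared, and leaving out each library. The members, gene lists and alternatives were chosen with earlier results of these data known. Named genes were the members, Tyrobp, the rest of the family, up to 4 called genes of smallest p per list (otherwise 2), the nearest tested genes on chromosome 7 and the 5 genes of highest correlation.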

Additional observations from a re-analysis of the deposited data

Results flagged for a closer look

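Each genotype's 6 CPM values of the 9 Siglec family genes were searched for a library that stood far from the rest, in 36 groups, and 4 were found. Chance gives about 1 in 20 groups. Cd22 was highest in Q175 replicate 6, at 1.04 CPM. Siglece was lowest in Q175;Tyrobp-KO replicate 6, at 0.109 CPM. Siglecg, which did not pass the filter, was highest in WT replicate 1, at 0.152 CPM, and in Q175 replicate 1, at 0.465 CPM. All 4 rest on few reads: 30 for Cd22, 3 for Siglece, and 4 and 12 for Siglecg.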

How the results depend on the processing

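No paired analysis was possible because the labels give animal numbers that are not shared between genotypes. Over the alternatives run, Cd33 kept its direction and its call in Q175;Tyrobp-KO against Q175 and in the averaged deletion contrast. In Tyrobp-KO against WT the females alone called 0 members, where the fit of all libraries called 1. In the averaged contrast, 1 member was called in place of 2 without the filter on low counts, in males alone and in females alone, and 1 to 2 on leaving out single libraries. Of 992 alternative values of single members, 936 kept direction and call, 21 lost a call and 35 changed sign, all of the last for estimates that were not called. In females alone Siglece was at -0.0842 in Tyrobp-KO against WT, -0.42 in Q175;Tyrobp-KO against Q175 and -0.25 in the averaged deletion contrast, and Siglech at -0.0112 for the averaged Q175 allele. In males alone Siglech was at 0.0620 in Q175;Tyrobp-KO against Tyrobp-KO and 0.0337 for the interaction. With limma-voom Siglece was at -0.0271 for the averaged Q175 allele and Cd22 at 0.0601 in females against males. On leaving out single libraries, log2 fold changes of Q175;Tyrobp-KO against Tyrobp-KO ranged from -0.17 to 0.41 for Cd22, -0.20 to 0.20 for Siglece and -0.0624 to 0.0280 for Siglech. Those of females against males ranged from -0.18 to 0.11 for Cd22, -0.0134 to 0.0499 for Cd33 and -0.0446 to 0.22 for Siglece. Cd33 in Q175 against WT ranged from -0.0153 to 0.11, Siglece in Q175;Tyrobp-KO against Q175 from -0.11 to 0.39, and Siglech for the averaged Q175 allele from -0.0048 to 0.0429. The cause was not tested. Depth limits Cd22, Siglece and Siglec1, at 14 to 145 reads per genotype.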
